A study of Mus musculus with 12 samples.

Results

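The genes described here are the growth hormone receptor Ghr, the 4 Janus kinases Jak1, Jak2, Jak3 and Tyk2, the adaptor Sh2b3, and the tyrosine phosphatases Ptpn1, Ptpn2, Ptpn6 and Ptpn11. They are 10 of the 18193 genes tested. They were chosen by name, with earlier results of these data known. Every probe set that the platform annotation lists for any of them was taken, which gave 26 of the 45101 probe sets on the array. A probe set is the group of short oligonucleotides that reads 1 transcript or a few related ones. Of the 26 probe sets, 24 were listed with a single gene and entered the tests, and the other 2 were listed with both Jak3 and Insl3.

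Fibroblasts cultured from C57BL/6 mouse embryos (MEFs), which in the body build connective tissue, gave the RNA for 12 Affymetrix arrays. The 6 groups of 2 arrays were Stat5-null MEFs carrying a retroviral STAT5A vector with and without growth hormone for 120 min (treated and untreated S5), Stat5-null MEFs with and without the hormone (treated and untreated KO), and wild-type MEFs with and without the hormone (treated and untreated WT). The Stat5-null background is shared by the S5 and KO groups, and only STAT5A was put back. The labels name neither a vehicle nor an empty-vector culture, and they give no number of lines or clones, so genotype and cell preparation cannot be told apart. The arrays of a group are called biological duplicates in the design text, and the small number of arrays (2 a group) limits the precision.

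Growth hormone binds its receptor on the cell surface, and the receptor, which has no kinase of its own, activates the JAK2 bound to it. JAK2 phosphorylates the receptor and the transcription factors STAT5A and STAT5B, which then enter the nucleus and switch on target genes. Tyrosine phosphatases and adaptors such as the protein made from Sh2b3 (LNK) limit how long JAK2 and the other JAKs stay active, while the remaining JAKs serve mainly other cytokine receptors, such as those of interferons and interleukins.

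For 9 of the 10 genes, RefSeq (assembly GRCm38.p6) gave a promoter window from 250 bases before the start of the gene to 50 bases after it, with 2 windows for Ghr. The 250 bases before the start are printed for Ptpn1, whose main probe set rose with the hormone in all 3 genotypes, and for Sh2b3, whose response differed between S5 and WT cells. They lie at chr2:167932077-167932326 on the plus strand and at chr5:121836105-121836354 on the minus strand.
Ptpn1: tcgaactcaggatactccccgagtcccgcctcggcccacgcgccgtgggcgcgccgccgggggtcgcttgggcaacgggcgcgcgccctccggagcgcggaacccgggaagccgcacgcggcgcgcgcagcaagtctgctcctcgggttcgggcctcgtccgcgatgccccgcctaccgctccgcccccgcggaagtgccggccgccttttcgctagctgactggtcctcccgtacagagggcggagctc
Sh2b3: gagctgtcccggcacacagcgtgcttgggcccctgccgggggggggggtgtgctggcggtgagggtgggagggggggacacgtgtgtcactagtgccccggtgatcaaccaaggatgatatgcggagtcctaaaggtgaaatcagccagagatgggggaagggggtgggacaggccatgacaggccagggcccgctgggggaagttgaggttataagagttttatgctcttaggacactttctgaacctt
The letters TTCNNNGAA, the core of the site bound by STAT proteins, and the interferon-stimulated response element, taken as GAAA, any 2 bases and GAAA again, were searched on both strands of the 10 windows. Neither was found in any of them, so no letter is in capitals, against shares of 8.3% and 3.44% of the 32851 windows in the RefSeq table that hold them. The stretches differ in base composition: that of Ptpn1 is 75.2% G and C with 41 CG dinucleotides, and that of Sh2b3 is 60.8% G and C with 8, beside medians of 52.4% and 6 over the same stretch of all genes. These are descriptions of a short window only.

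Across the series, the duplicates correlated at 0.989 to 0.9954 over the probe sets compared. The Stat5a probe set 1421469_a_at had group means of 2.35 and 2.41 in treated and untreated S5 cells, 2.40 and 2.44 in KO cells, and 12.25 and 11.48 in WT cells on the deposited log2 scale, where values below 4 were taken as the low mode of the arrays. The Stat5a probe set 1450259_a_at was at 9.09 and 9.88 in S5 cells, at 2.22 and 2.23 in KO cells, and at 2.35 and 2.24 in WT cells. The first probe set was thus above the low mode in WT cells alone and the second in S5 cells alone. Of the fibroblast markers, Col1a1 lay between 14.66 and 14.80 in all 6 groups, whereas Thy1 had means of 2.88 and 4.31 in treated and untreated S5 cells, against 14.11 to 14.26 in the other 4 groups. Fap was also lower in S5 cells, at 3.94 and 3.75 against 8.37 to 10.91, while Col1a2 lay between 14.66 and 14.76 in all groups. The mean over the fibroblast markers was 9.99 on the S5 arrays, 12.02 on the KO arrays and 12.67 on the WT arrays. The mean over 18 macrophage markers was 2.93 to 3.16 on the S5 arrays, 3.80 to 4.08 on the KO arrays and 8.84 to 10.34 on the WT arrays. All 4 arrays were below 4 for 15 of these 18 markers in S5 cells, for 11 in KO cells and for 1 in WT cells, and Csf1r, the receptor of the main macrophage growth factor, had group means of 4.84 and 6.58 in treated and untreated S5 cells, 8.18 and 7.73 in KO cells, and 13.88 and 13.38 in WT cells. The difference between the 3' and 5' Gapdh control probe sets, a sign of RNA integrity, was 1.52 ± 0.08 on the S5 arrays, 1.04 ± 0.08 on the KO arrays and 1.02 ± 0.15 on the WT arrays (SD, n = 4 each). The part of these differences in the results below was not tested.

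Transcripts of 9 of the 10 genes were measured above the low mode in at least 1 group. Of the 24 probe sets tested, 20 had a group mean of 4 or more somewhere, and the other 4 (Jak3 1425750_a_at, Tyk2 1432576_at, Sh2b3 1450183_a_at and Ptpn6 1456694_x_at) stayed below 4 on all 12 arrays. For each gene, the probe set with the highest mean moved over a different span: the 6 group means of Ghr 1417962_s_at lay within 0.17 on the log2 scale, those of Jak2 1421066_at within 0.43, and those of Ptpn6 1460188_at within 2.81. Levels of different probe sets are not compared, because probes differ in how strongly they hybridise.

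**Figure D1:**
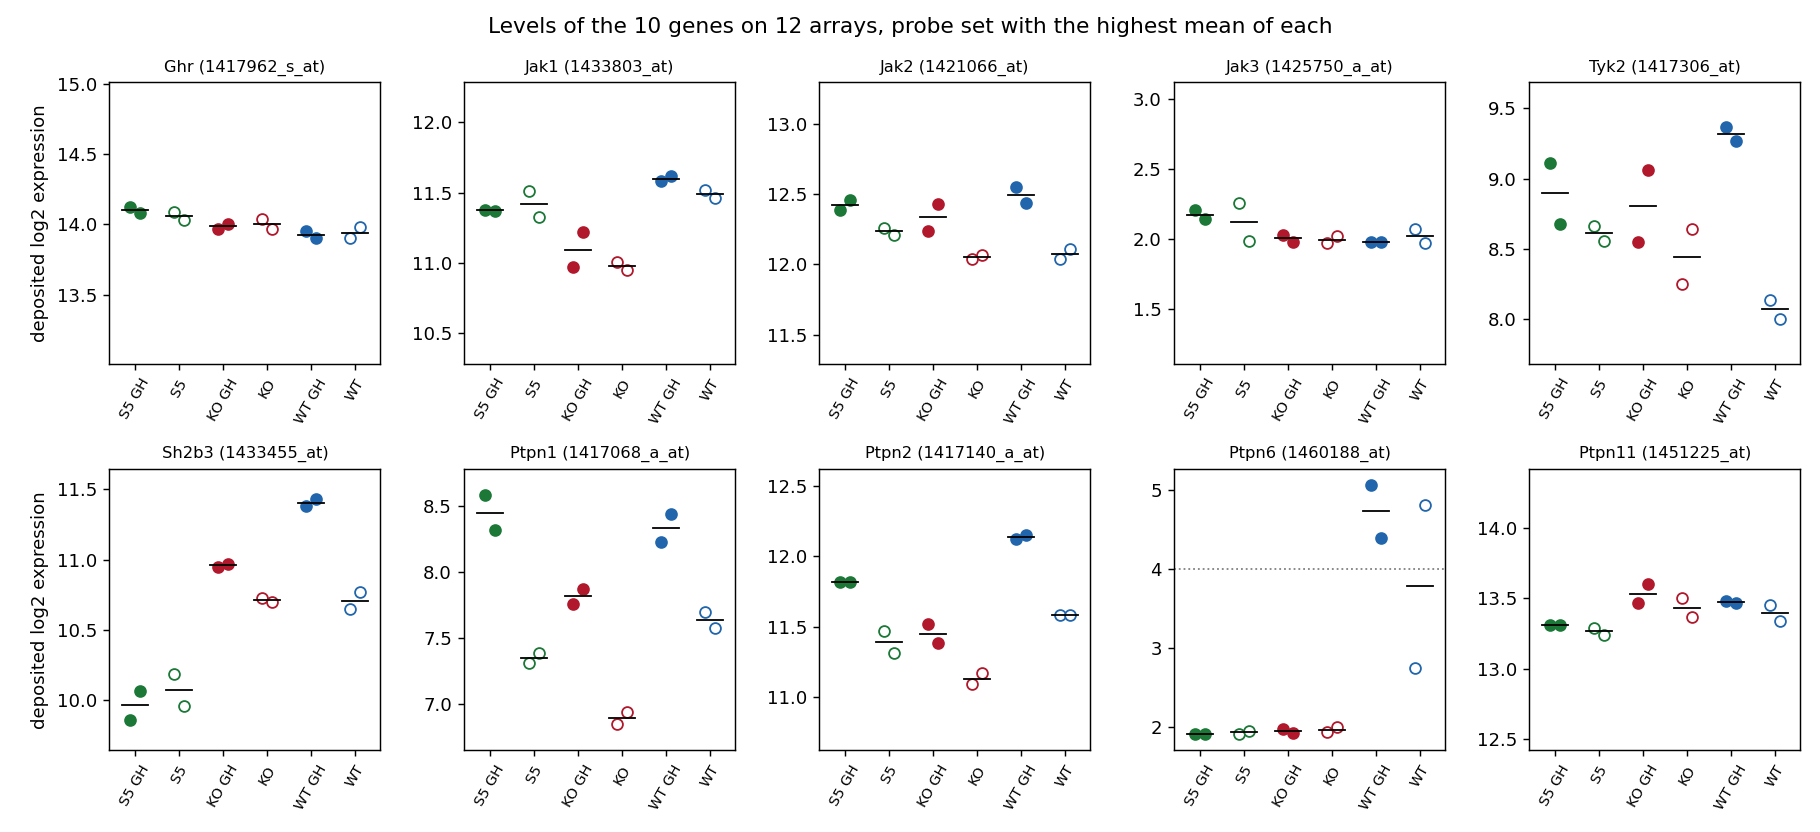
Deposited log2 expression on each of the 12 arrays for the highest-mean probe set of each of the 10 genes, 1 panel a gene with its own vertical range (filled points, growth hormone for 120 min; open points, untreated; bars, group means; dotted line in the Ptpn6 panel, the low bound of 4). Ghr stays between 13.90 and 14.12 on all arrays, Ptpn1 is higher on the treated than on the untreated arrays in every genotype, and Ptpn6 is above 4 only on 3 WT arrays.

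The first question was which of these transcripts responded to growth hormone within each genotype. In WT cells, 5 of the 24 probe sets rose and none fell: Jak2, Tyk2, Sh2b3, Ptpn1 and Ptpn2, 1 probe set each. In KO cells 1 rose, of Ptpn1, and in S5 cells 3 rose, 2 of Ptpn1 and 1 of Ptpn2. The share called was 20.8% of the member probe sets in WT cells, where 3.79% of the 34945 probe sets tested were called (2.2% higher and 1.59% lower), 4.17% in KO cells beside 0.24% (0.183% higher), and 12.5% in S5 cells beside 6.84% (3.43% higher and 3.41% lower). The median log2 difference of the 24 probe sets was 0.28 in WT, 0.04 in KO and 0.15 in S5 cells, beside medians over all probe sets tested of -0.03, -0.02 and -0.02. The genes were chosen with earlier results of these data known, and 47.1% of all probe sets tested had a mean below 4. The member shares are therefore not read as a result about these genes. Every call is limma's moderated test with a Benjamini-Hochberg adjusted p below 0.05 over all 34945 probe sets. Without the untreated WT array 1, which had the lowest macrophage marker mean of the WT arrays (8.84), 3 member probe sets were called in WT cells, as without untreated WT array 2, and without treated WT array 2 there were 2. In S5 cells 1 was called without treated S5 array 1 or untreated S5 array 2, and the arrays on which the KO call rests are named with Ptpn1.

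Whether a response differed between genotypes was tested directly, as the difference of 2 treated minus untreated differences. No member passed for WT minus KO (5 had an unadjusted p below 0.05, and 0.735% of all probe sets were called) or for S5 minus KO (2 unadjusted, 1.02% of all). For S5 minus WT, 1 member passed, Sh2b3, which was lower (5 unadjusted, 2.28% of all called and 1.18% called lower). These counts became 1, 1 and 2 without single arrays: treated WT array 1 or untreated WT array 2 for WT minus KO, treated S5 array 2 for S5 minus KO, and treated S5 array 2 or untreated WT array 2 for S5 minus WT. The probe sets gained were 1460188_at or 1456694_x_at of Ptpn6 and 1450183_a_at of Sh2b3, the last 2 of them in the low mode in all groups. The count for S5 minus WT was 0 without treated or untreated S5 array 1, either untreated KO array, treated WT array 2 or untreated WT array 1. Without treated WT array 1 it was still 1, but the call was then Ptpn6 1456694_x_at in place of Sh2b3. The responses in WT, KO and S5 cells share arrays between these tests, so each is given by its own value.

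**Figure D2:**
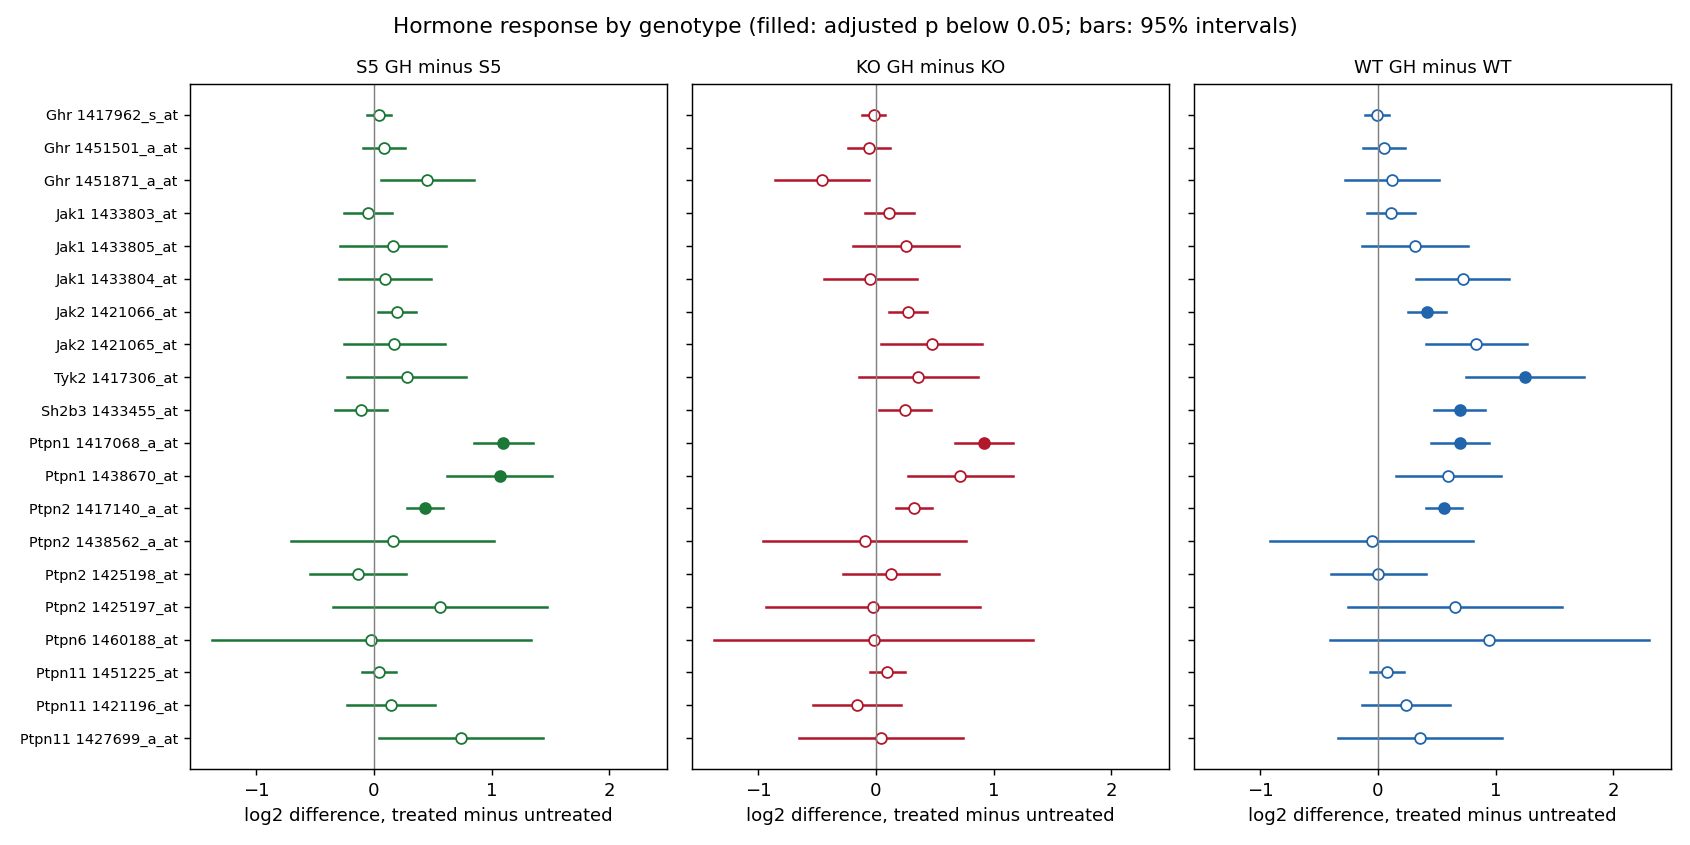
Log2 difference, treated minus untreated, of the 20 member probe sets that reached 4 in a group, in S5, KO and WT cells from left to right (points, limma estimates; bars, 95% intervals; filled, adjusted p below 0.05). The 1417068_a_at probe set of Ptpn1 is filled in all 3 panels, and Jak2, Tyk2 and Sh2b3 are filled in WT cells alone.

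The second question was how the 3 genotypes differed, over treated and untreated arrays together (4 arrays each). Between KO and WT cells 10 of the 24 probe sets were called, 3 higher and 7 lower in KO, where 31.4% of all probe sets tested were called (17.8% higher and 13.6% lower). Between S5 and KO cells 9 were called, 4 higher and 5 lower in S5, beside 32.2% of all (17% and 15.2%), and between S5 and WT cells 8 were called, 2 higher and 6 lower in S5, beside 39% of all (21.6% and 17.3%). The member shares of 41.7%, 37.5% and 33.3% lie near these backgrounds, so the counts say nothing particular about the genes, and the results are the values of each. In bulk RNA, fewer cells of a type and less RNA per cell cannot be told apart.

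**Figure D3:**
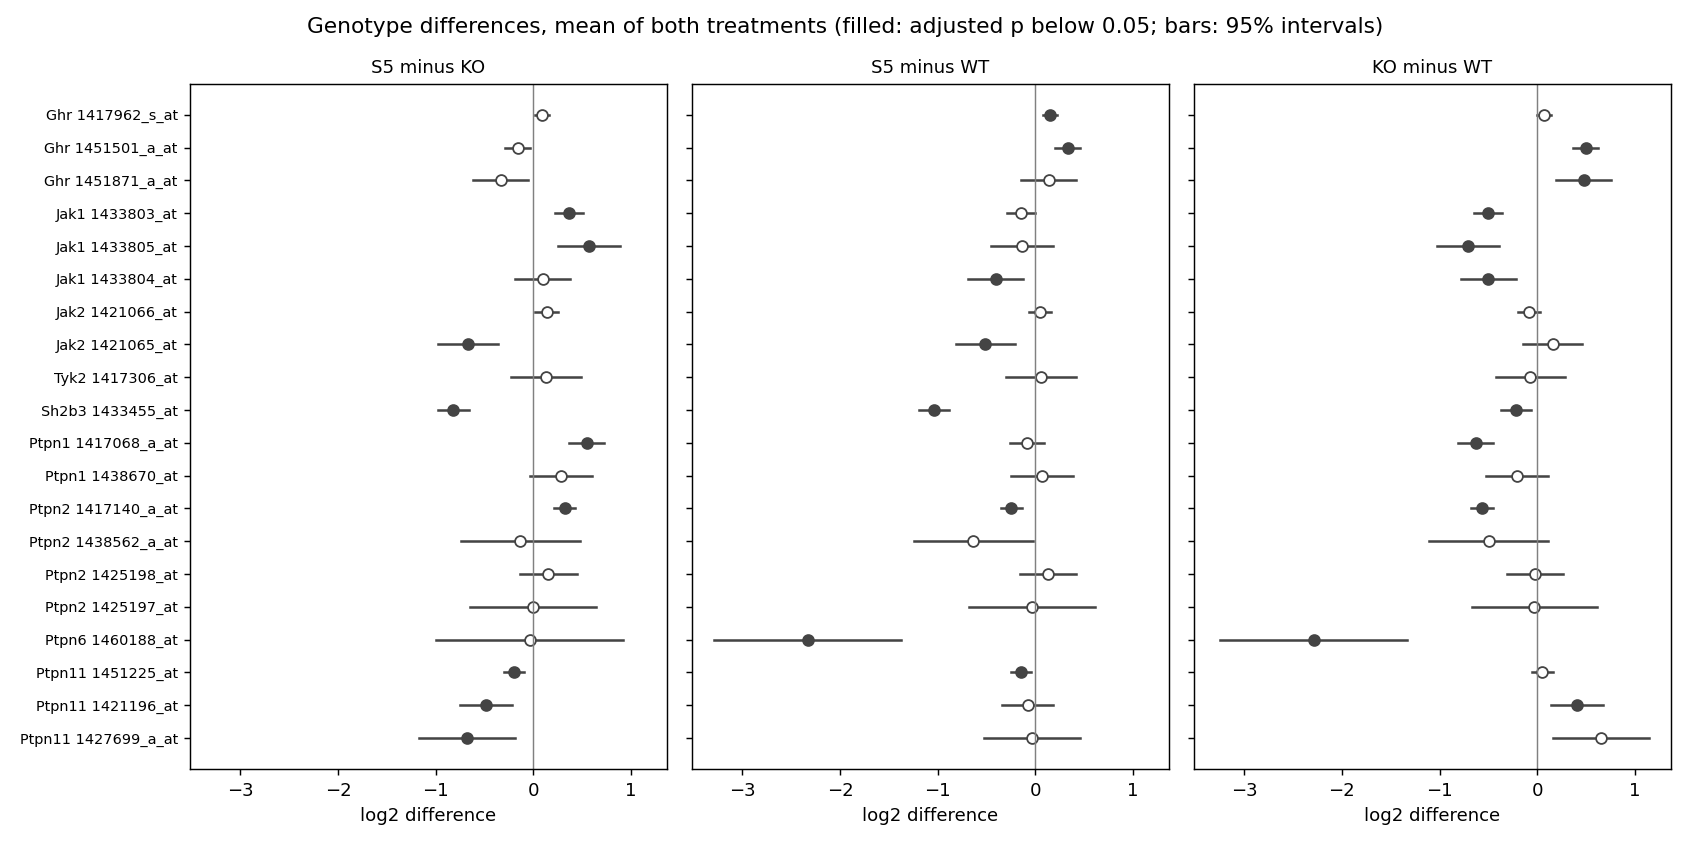
Log2 differences between genotypes for the same 20 probe sets, averaged over both treatments (S5 minus KO, S5 minus WT and KO minus WT from left to right; points, limma estimates; bars, 95% intervals; filled, adjusted p below 0.05). The 3 Jak1 probe sets lie to the left of 0 for KO minus WT, Sh2b3 lies to the left of 0 in all 3 panels, and Ptpn6 lies beyond -2 in both comparisons with WT.

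Ghr, the receptor itself, was not called with the hormone in any genotype. The probe set 1417962_s_at read 14.12 and 14.08 in treated S5 cells, 14.09 and 14.03 in untreated S5 cells, 13.97 and 14 in treated KO cells, 14.04 and 13.97 in untreated KO cells, 13.95 and 13.90 in treated WT cells, and 13.90 and 13.98 in untreated WT cells. Treated and untreated arrays overlapped in each genotype. The 95% intervals of its hormone difference were -0.06 to 0.14 in S5, -0.12 to 0.08 in KO and -0.11 to 0.09 in WT cells, so a change of 0.15 on the log2 scale in either direction lay outside all 3. That bound holds for this probe set only. The probe set 1451501_a_at was not called either, with differences of 0.08, -0.06 and 0.05 in S5, KO and WT cells. Its 95% intervals were wider, -0.09 to 0.26 in S5, -0.24 to 0.12 in KO and -0.13 to 0.23 in WT cells. They did not exclude a change of 0.15. The third, 1451871_a_at, differed by 0.46 in S5 cells (adjusted p = 0.196) and by -0.46 in KO cells (adjusted p = 0.465), and the difference of these 2 responses, 0.92 ± 0.24 (SE), did not pass (adjusted p = 0.197).

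Between genotypes, Ghr was higher in the Stat5-null cells on 2 of its 3 probe sets. The probe set 1451501_a_at read 12.19 and 12.31 in treated and 12.38 and 12.24 in untreated KO cells, against 11.88 and 11.73 in treated and 11.81 and 11.71 in untreated WT cells. All 4 KO arrays were above all 4 WT arrays, and KO minus WT was 0.49 ± 0.05 (SE, adjusted p = 0.000365). For 1451871_a_at the KO minus WT difference was 0.47 ± 0.12 (adjusted p = 0.0202), from 0.76 on untreated arrays (adjusted p = 0.0174) and 0.18 on treated arrays (adjusted p = 0.635). That call was lost without treated KO array 2, without untreated KO array 1 and without any 1 of the 4 WT arrays (adjusted p of 0.0513 to 0.0597). S5 cells also exceeded WT cells, by 0.33 ± 0.05 on 1451501_a_at (adjusted p = 0.0019) and by 0.15 ± 0.03 on 1417962_s_at (adjusted p = 0.00609), with no overlap of arrays. The first of these is the larger and was called on untreated and on treated arrays alone. The second was 0.175 on treated arrays (adjusted p = 0.0182) and 0.124 on untreated arrays, where it was not called (adjusted p = 0.0741). Its call was also lost when only probe sets with a group mean of 4 or more were tested (adjusted p = 0.0565). None of the 3 probe sets was called between S5 and KO cells, where 1451501_a_at differed by -0.16 ± 0.05 (adjusted p = 0.0554). On 1451871_a_at the S5 minus KO difference was 0.12 on treated arrays (adjusted p = 0.699) and -0.795 on untreated arrays, where it was called (adjusted p = 0.0137). The gene makes a full-length receptor and, from a shorter transcript, a soluble binding protein, and the annotation used does not say which of them each probe set reads.

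Jak2, the kinase bound to the receptor, rose with growth hormone in WT cells. The probe set 1421066_at read 12.55 and 12.44 in treated and 12.04 and 12.11 in untreated WT cells, a log2 difference of 0.42 ± 0.07 (SE, adjusted p = 0.0213). The same probe set read 12.24 and 12.43 in treated against 12.04 and 12.07 in untreated KO cells, and 12.39 and 12.46 in treated against 12.26 and 12.21 in untreated S5 cells. Treated arrays were above untreated ones in all 3 genotypes, but the differences of 0.28 in KO and 0.20 in S5 cells did not pass (adjusted p = 0.238 and 0.17). The WT call was lost without treated WT array 1 (adjusted p = 0.0864), untreated WT array 1 (0.102) or untreated WT array 2 (0.0623). The dimmer probe set 1421065_at differed by 0.84 ± 0.18 in WT cells (adjusted p = 0.057), by 0.47 in KO and by 0.17 in S5 cells. The WT minus KO response was 0.14 with a 95% interval of -0.09 to 0.37 on 1421066_at, so the data neither pass the test of a difference nor show equal responses.

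Between genotypes, the 2 Jak2 probe sets did not move alike. On 1421065_at, S5 cells were lower than KO cells by 0.67 on the log2 scale (-0.67 ± 0.13, adjusted p = 0.00596) and lower than WT cells by 0.51 (-0.51 ± 0.13, adjusted p = 0.0164). The second call was lost without treated S5 array 2 (adjusted p = 0.0554), untreated S5 array 2 (0.0563), treated WT array 1 (0.0531) or untreated WT array 2 (0.057), and on untreated arrays alone the difference was -0.18. On 1421066_at the S5 minus KO and S5 minus WT differences were 0.13 and 0.05, neither called. KO and WT cells differed by -0.09 on 1421066_at and by 0.16 on 1421065_at (adjusted p = 0.255 and 0.5).

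Jak1, which serves the interferon receptors and those of the interleukin-6 family, was lower in KO than in WT cells on all 3 of its probe sets. The probe set 1433803_at read 10.97 and 11.22 in treated and 11.01 and 10.95 in untreated KO cells, against 11.58 and 11.62 in treated and 11.52 and 11.46 in untreated WT cells. The 2 sets of 4 arrays did not overlap, and the difference of -0.51 ± 0.06 (adjusted p = 0.000647) was nearly the same on untreated (-0.51) and treated arrays (-0.50). The probe set 1433805_at differed by -0.71 ± 0.14 (adjusted p = 0.00563). On 1433804_at the difference was -0.50 ± 0.12 (adjusted p = 0.0149), but it came from treated arrays (-0.89, adjusted p = 0.00772) and was -0.12 on untreated arrays (adjusted p = 0.815).

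S5 cells had more Jak1 transcript than KO cells on 2 of these probe sets. On 1433803_at they read 11.38 and 11.37 when treated and 11.51 and 11.33 when untreated, all above the 4 KO arrays, and S5 minus KO was 0.36 ± 0.06 (adjusted p = 0.00319). On 1433805_at S5 minus KO was 0.57 ± 0.14 (adjusted p = 0.0146), a call lost without treated S5 array 1 (adjusted p = 0.0513) or untreated S5 array 1 (0.0514). On untreated arrays alone S5 minus KO was 0.44 on 1433803_at (adjusted p = 0.00956) and 0.615 on 1433805_at (adjusted p = 0.0602). On treated arrays alone it was 0.28 (adjusted p = 0.0567) and 0.525 (adjusted p = 0.0951), neither called. The third probe set, 1433804_at, differed by 0.09 (adjusted p = 0.573). Against WT cells, S5 cells differed by -0.15 on 1433803_at (95% interval -0.29 to 0.00, adjusted p = 0.11) and by -0.14 on 1433805_at (-0.46 to 0.18, adjusted p = 0.457). On 1433804_at S5 cells were lower than WT cells by 0.41 (-0.41 ± 0.12, adjusted p = 0.029), a call lost without treated S5 array 2, either untreated S5 array, either treated WT array or untreated WT array 1 (adjusted p of 0.0641 to 0.0896). It was -0.72 on treated arrays (adjusted p = 0.0138) and -0.09 on untreated arrays (adjusted p = 0.719). None of the 3 Jak1 probe sets was called with the hormone. The largest hormone difference was that of 1433804_at in WT cells, 0.72 ± 0.17 (adjusted p = 0.0687), where treated cells read 8.71 and 8.74 and untreated cells 8.16 and 7.84.

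Tyk2, which pairs with JAK1 on the type I interferon receptor, had the largest log2 rise with hormone among the member probe sets called in WT cells. The probe set 1417306_at read 9.37 and 9.27 in treated against 8.14 and 8 in untreated WT cells, a difference of 1.25 ± 0.21 (SE, adjusted p = 0.0243). In KO cells it read 8.55 and 9.06 when treated and 8.25 and 8.64 when untreated, and these arrays overlapped. In S5 cells it read 9.11 and 8.68 when treated and 8.66 and 8.56 when untreated. The differences of 0.36 in KO (adjusted p = 0.812) and 0.28 in S5 cells (adjusted p = 0.63) did not pass. The WT minus KO response was 0.89 ± 0.30 (adjusted p = 0.431) and the S5 minus WT response -0.97 ± 0.30 (adjusted p = 0.206), so a difference between genotypes in the Tyk2 response was not shown. The WT call was lost without any 1 of the 4 WT arrays (adjusted p of 0.0794 to 0.109) and without either untreated S5 array (0.0526), which enter the pooled variance only. Untreated WT cells had the lowest group mean and treated WT cells the highest, 8.07 and 9.32, with the S5 and KO groups between them. No genotype comparison called Tyk2, with differences of -0.07 for KO minus WT, 0.13 for S5 minus KO and 0.06 for S5 minus WT.

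Jak3, the kinase of receptors with the common cytokine gamma chain in lymphocytes, was in the low mode on its own probe set, which read 1.97 to 2.26 over the 12 arrays. The 2 probe sets listed with both Jak3 and Insl3 cannot be assigned to either gene and were not tested. One of them, 1427092_at, read 3.47 and 4.93 in treated and 6.18 and 5.18 in untreated KO cells, against 2.04 to 3.12 on the other 8 arrays. The other, 1423021_s_at, stayed between 3.27 and 4.53. Only 1427092_at is set apart in KO cells, and which gene it reads there is unknown.

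Sh2b3, the adaptor LNK that binds JAK2 and limits its signalling, was the only member whose hormone response passed the test of a difference between genotypes. The probe set 1433455_at read 11.38 and 11.43 in treated against 10.65 and 10.77 in untreated WT cells. It read 10.95 and 10.97 in treated against 10.73 and 10.70 in untreated KO cells, and 9.86 and 10.07 in treated against 10.19 and 9.96 in untreated S5 cells. Treated arrays were above untreated ones in WT and KO cells, and the S5 arrays overlapped. The hormone difference was 0.70 ± 0.09 (SE, adjusted p = 0.00959) in WT cells, 0.25 ± 0.09 (adjusted p = 0.481) in KO cells and -0.11 ± 0.09 (adjusted p = 0.677) in S5 cells. The S5 minus WT response was -0.81 ± 0.13 (adjusted p = 0.0281), while WT minus KO (0.45 ± 0.13, adjusted p = 0.32) and S5 minus KO (-0.36 ± 0.13, adjusted p = 0.419) did not pass. Beside it, the macrophage marker mean was 10.34 and 10.31 on the treated and 8.84 and 10.25 on the untreated WT arrays, and 2.93 to 3.16 on the S5 arrays.

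The WT response of Sh2b3 was lost without treated WT array 2 (adjusted p = 0.0572). The S5 minus WT response was past the threshold by little: it was lost without treated S5 array 1 (adjusted p = 0.0566), untreated S5 array 1 (0.0611), either untreated KO array (0.0538), treated WT array 1 (0.0665), treated WT array 2 (0.0841) or untreated WT array 1 (0.0787). Its level between genotypes was more stable. S5 cells were below KO cells by 0.82 on the log2 scale (-0.82 ± 0.07, adjusted p = 6.58e-05) and below WT cells by 1.04 (-1.04 ± 0.07, adjusted p = 1.62e-05), every S5 array lay below every KO and WT array, and both calls held under every alternative run. KO cells were below WT cells by 0.22 (-0.22 ± 0.07, adjusted p = 0.0384), which came from treated arrays (-0.45, adjusted p = 0.0118), with 0.00 on untreated arrays (adjusted p = 0.998). That last call was lost without any 1 of the 4 KO arrays, either treated WT array or untreated WT array 2 (adjusted p of 0.0749 to 0.12).

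Ptpn1, which encodes the phosphatase PTP1B that removes phosphate from JAK2 and TYK2, rose with growth hormone in all 3 genotypes, the Stat5-null cells included. The probe set 1417068_a_at read 8.58 and 8.32 in treated against 7.31 and 7.39 in untreated S5 cells. It read 7.76 and 7.87 in treated against 6.85 and 6.94 in untreated KO cells, and 8.23 and 8.44 in treated against 7.70 and 7.58 in untreated WT cells. Treated arrays did not overlap untreated ones in any genotype. The log2 difference was 1.10 ± 0.11 (SE, adjusted p = 0.00216) in S5, 0.92 ± 0.11 (adjusted p = 0.0282) in KO and 0.70 ± 0.11 (adjusted p = 0.0159) in WT cells. The second probe set, 1438670_at, was also higher on treated arrays in each genotype, and it was called in S5 cells (1.07 ± 0.19, adjusted p = 0.02) but not in KO (0.72, adjusted p = 0.255) or WT cells (0.60, adjusted p = 0.161). No difference between these responses passed: on 1417068_a_at it was -0.22 (95% interval -0.57 to 0.13) for WT minus KO, 0.18 (-0.17 to 0.53) for S5 minus KO and 0.40 (0.05 to 0.76, adjusted p = 0.307) for S5 minus WT.

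The KO call of Ptpn1 was the least firm of the 3. It was lost without treated KO array 2 (adjusted p = 0.0829), untreated KO array 1 (0.103), untreated KO array 2 (0.0661), either untreated S5 array (0.0754) or either untreated WT array (0.058). The WT call was lost without treated WT array 2 (adjusted p = 0.0777) or untreated WT array 2 (0.0765), and the S5 call of 1438670_at without any 1 of the 4 S5 arrays (0.067 to 0.105). The S5 call of 1417068_a_at was kept with each array left out. Across genotypes, 1417068_a_at was lower in KO than in WT cells (-0.63 ± 0.08, adjusted p = 0.000573) and higher in S5 than in KO cells (0.54 ± 0.08, adjusted p = 0.00111), in both cases also on untreated and on treated arrays alone. S5 minus WT was -0.09 (95% interval -0.26 to 0.09). The probe set 1438670_at was not called between any of the genotypes, with differences of -0.21, 0.28 and 0.07.

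Ptpn2, which encodes the T-cell phosphatase that acts on JAK1, JAK3 and STAT proteins, rose with the hormone in WT and S5 cells on 1 of its 4 probe sets. The probe set 1417140_a_at read 11.82 and 11.82 in treated against 11.47 and 11.31 in untreated S5 cells, a difference of 0.43 ± 0.07 (SE, adjusted p = 0.0113). It read 11.52 and 11.38 in treated against 11.09 and 11.17 in untreated KO cells, where the difference of 0.33 ± 0.07 did not pass (adjusted p = 0.139). It read 12.12 and 12.15 in treated against 11.58 and 11.58 in untreated WT cells, a difference of 0.56 ± 0.07 (adjusted p = 0.00551). Treated arrays were above untreated ones in all 3 genotypes, and the 3 differences between responses lay between -0.13 and 0.23 with none past the threshold. The WT call was kept with each array left out, and the S5 call was lost without treated S5 array 1 (adjusted p = 0.0572) or untreated S5 array 2 (0.053). The other 3 probe sets differed by -0.13 to 0.65 with the hormone, and none was called.

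The same probe set separated the genotypes. KO cells were lower than WT cells (-0.57 ± 0.05, adjusted p = 9.04e-05) with no overlap of arrays, S5 cells were higher than KO cells (0.32 ± 0.05, adjusted p = 0.00141), and S5 cells were lower than WT cells (-0.25 ± 0.05, adjusted p = 0.00379). The last difference was -0.19 on untreated arrays alone (adjusted p = 0.0769). The probe sets 1438562_a_at, 1425198_at and 1425197_at were not called in any genotype comparison, and their largest difference was -0.64 for S5 minus WT on 1438562_a_at (adjusted p = 0.0967). The calls of Ptpn2 thus rest on 1417140_a_at, and with the mean of the 4 probe sets the gene was not called in any of these comparisons (adjusted p of 0.106 to 0.599).

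Ptpn6, which encodes SHP-1, a phosphatase of blood cells that acts on JAKs and their receptors, was above the low mode on WT arrays alone. Its group mean on 1460188_at was 4.73 in treated and 3.78 in untreated WT cells, so only the treated group reached 4. The probe set 1460188_at read 1.92 and 1.91 in treated and 1.92 and 1.95 in untreated S5 cells, 1.98 and 1.93 in treated and 1.94 and 2 in untreated KO cells, and 5.06 and 4.39 in treated and 2.75 and 4.81 in untreated WT cells. Every S5 and KO array was in the low mode, as was untreated WT array 1. KO minus WT was -2.29 ± 0.41 (SE, adjusted p = 0.00408) and S5 minus WT -2.33 ± 0.41 (adjusted p = 0.00281) on the values as deposited, and -0.36 for both when group means below 4 are set to 4. On untreated arrays alone neither passed (adjusted p = 0.0684 and 0.0507). The hormone difference in WT cells was 0.95, with a 95% interval of -0.41 to 2.30 (adjusted p = 0.465). Single arrays decided it: without untreated WT array 2 it was 1.98 and called (adjusted p = 0.0106), and without untreated WT array 1 it was -0.08 (adjusted p = 0.891).

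The macrophage markers moved with Ptpn6. Their mean was 2.93 to 3.16 on the S5 arrays, 3.80 to 4.08 on the KO arrays, 8.84 on the untreated WT array 1, where Ptpn6 read 2.75, and 10.25 to 10.34 on the 3 WT arrays where Ptpn6 read 4.39 to 5.06. Among the defining markers, the means of treated and untreated WT cells were 10.21 and 9.38 for Ptprc (CD45, carried by all white blood cells) and 10.83 and 9.34 for Adgre1 (a surface receptor of mature macrophages), and both genes were in the low mode in all S5 and KO groups. Other markers were not: in treated and untreated KO cells the group means were 8.18 and 7.73 for Csf1r, 7.02 and 6.41 for Lyz2 (lysozyme), 7 and 6.62 for C1qb (a complement chain) and 6.22 and 5.48 for Cd53. In S5 cells Csf1r was at 4.84 and 6.58, and these other 3 genes were in the low mode. Itgam was in the low mode in all 6 groups, and Spi1 had WT group means of 3.76 and 2.02. Whether macrophages in the WT culture account for its Ptpn6 was not tested, and the same marker difference stands beside every comparison with WT cells above.

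**Figure D4:**
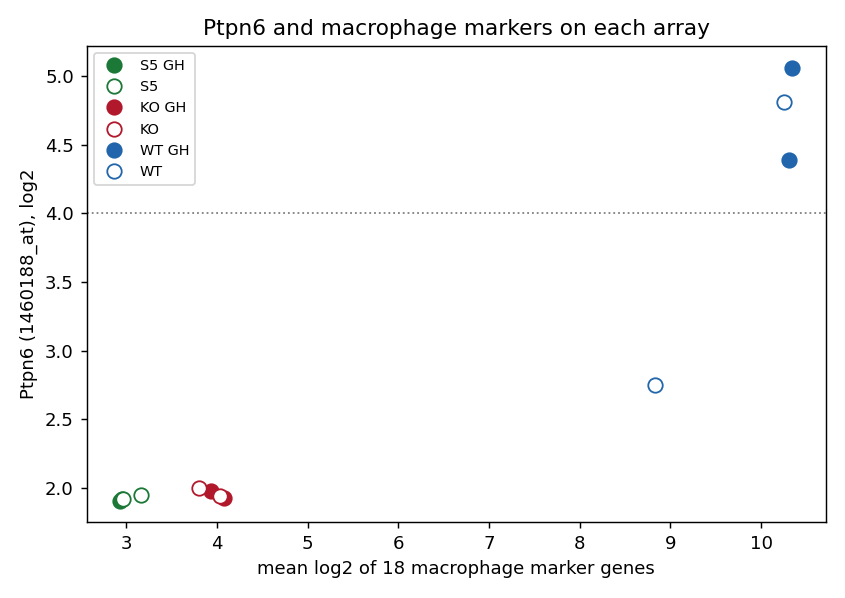
Deposited log2 value of Ptpn6 (probe set 1460188_at, vertical axis) against the mean log2 value of 18 macrophage marker genes (horizontal axis) on each of the 12 arrays, with filled points for growth hormone and a dotted line at the low bound of 4. The 8 S5 and KO arrays lie at 1.91 to 2 for Ptpn6 and at 2.93 to 4.08 for the markers, and untreated WT array 1 is the lowest WT array on both axes.

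Ptpn11, which encodes SHP-2, a phosphatase that binds the growth hormone receptor and also carries signals to the Ras pathway, was not called with the hormone in any genotype. On 1451225_at the hormone differences were 0.04 in S5, 0.10 in KO and 0.08 in WT cells, and none of the 95% intervals went beyond -0.11 or 0.25. The dimmest probe set, 1427699_a_at, differed by 0.74 in S5 cells (adjusted p = 0.231), with untreated S5 arrays in the low mode. Between S5 and KO cells all 3 probe sets were lower in S5. The probe set 1451225_at read 13.31 and 13.31 in treated and 13.29 and 13.24 in untreated S5 cells, against 13.47 and 13.60 in treated and 13.50 and 13.37 in untreated KO cells. The S5 arrays all lay below the KO arrays, and the difference was small, -0.20 ± 0.04 (SE, adjusted p = 0.0109). It was -0.48 ± 0.11 on 1421196_at (adjusted p = 0.0136) and -0.68 ± 0.21 on 1427699_a_at (adjusted p = 0.043), or -0.37 on the last with low group means set to 4. On treated arrays alone these 2 probe sets differed by -0.33 each (adjusted p = 0.209 and 0.533), and on untreated arrays by -0.64 (adjusted p = 0.0264) and -1.03 (adjusted p = 0.0455).

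The remaining Ptpn11 calls were less firm. The S5 minus KO call of 1427699_a_at was lost without treated S5 array 2, either untreated S5 array, either treated KO array, untreated KO array 1 or either treated WT array (adjusted p of 0.0615 to 0.127). KO cells exceeded WT cells on 1421196_at by 0.40 ± 0.11 (adjusted p = 0.0305), a call lost without either treated KO array, untreated KO array 1, treated WT array 1 or untreated WT array 2 (adjusted p of 0.0558 to 0.098). It was 0.20 on treated arrays (adjusted p = 0.536) and 0.60 on untreated arrays (adjusted p = 0.0339). S5 cells were lower than WT cells on 1451225_at by 0.15 (-0.15 ± 0.04, adjusted p = 0.0327), a call lost without any 1 of the 4 S5 arrays, either treated WT array or untreated WT array 1 (adjusted p of 0.06 to 0.103).

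For the genes among Ghr, Jak2, Sh2b3 and Ptpn6 whose main probe set spanned 1 log2 unit or more over the 6 groups, the 3 other genes with the most similar pattern over the 12 arrays were looked up among 10327 probe sets. Ghr and Jak2 did not reach that span. The nearest to Sh2b3 were Nfatc1 (Pearson r = 0.974), Cd40 (0.974) and Icam1 (0.967). Icam1, an adhesion molecule, had group means of 2.84 and 2.52 in treated and untreated S5 cells, 10.34 and 9.37 in KO cells, and 13.37 and 10.34 in WT cells. The nearest to Ptpn6 were Tlr7 (r = 0.997), Ptpn18 (0.995) and Milr1 (0.994). Tlr7, an endosomal receptor for RNA, had group means of 2.16 and 2.23 in treated and untreated S5 cells, 2.21 and 2.23 in KO cells, and 5.56 and 4.68 in WT cells. The 12 points come from 6 groups, so these correlations describe the group pattern and carry no test.

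Other genes of the pathway were read from 3 lists. Of 26 further transducers and brakes of the receptor, 25 were measured by 69 probe sets, of which 2 were higher and 2 lower with the hormone in WT cells, 1 was higher in KO cells, and 2 were higher and 4 lower in S5 cells, with medians of -0.01, -0.01 and -0.02. Over all probe sets tested, 3.79%, 0.24% and 6.84% were called in WT, KO and S5 cells, and nothing particular to the list is read from counts this small. Gab2, a docking adaptor, was called in each genotype on 1419829_a_at, with hormone differences of 0.70 ± 0.05 (SE, adjusted p = 0.000377) in S5, 0.46 ± 0.05 (adjusted p = 0.0188) in KO and 0.28 ± 0.05 (adjusted p = 0.0195) in WT cells. The Gab2 response was larger in S5 than in WT cells, by 0.42 ± 0.06 (adjusted p = 0.0205). The receptor phosphatase Ptpre (1418540_a_at) moved in opposite directions, with -0.70 in S5 cells (adjusted p = 0.0165) and 0.71 in WT cells (adjusted p = 0.0203), and the S5 minus WT response was -1.41 ± 0.16 (adjusted p = 0.00721). The S5 minus KO response of Ptpre was -0.99 ± 0.16 (adjusted p = 0.0481). Irs1, an adaptor shared with the insulin receptor, fell by 0.85 on the log2 scale in WT cells (adjusted p = 0.00918).

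Of the 15 STAT and SOCS genes, 14 were measured by 37 probe sets, of which 5 were higher with the hormone in WT cells, and 11 were higher and 2 lower in S5 cells. Over all probe sets, 2.2% were called higher in WT cells, and 3.43% higher and 3.41% lower in S5 cells. In KO cells 0 of the 37 passed in limma, where 0.24% of all probe sets were called, and 4 had an unadjusted p below 0.05. At so low a share, a count of 0 says nothing particular about the list. Cish, a STAT5 target that feeds back on the receptor, had group means of 9.25 and 3.50 in treated and untreated S5 cells and of 8.14 and 5.01 in treated and untreated WT cells. Its WT minus KO response was 3.51 ± 0.23 (SE, adjusted p = 0.000728).

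Of 17 receptors that use the same JAKs, 14 were measured by 37 probe sets, of which 8 were higher with the hormone in WT cells, 1 in KO cells and 1 in S5 cells, where 1 was also lower. Over all probe sets tested, 2.2%, 0.183% and 3.43% were called higher in WT, KO and S5 cells, and 3.41% lower in S5 cells. In the direct tests of a difference between responses, 0 of the 37 passed for WT minus KO and 0 for S5 minus KO. For S5 minus WT 1 passed, of Il4ra, which was lower. Over all probe sets, 0.735%, 1.02% and 2.28% were called in these tests. The counts by genotype are therefore not read as a response of WT cells alone. The WT calls with the smallest adjusted p were of Ifnar2 (2.36 ± 0.24, adjusted p = 0.0029), Il4ra (1.21 ± 0.13, adjusted p = 0.00355), Ifnar1 (0.74 ± 0.11, adjusted p = 0.0169) and Ifngr1 (0.86 ± 0.17, adjusted p = 0.0373), receptor chains for interferons and interleukin-4. The Il4ra probe set, 1423996_a_at, had means of 4.075 in treated and 2.861 in untreated WT cells, so its rise lay mostly in the low mode. The chains of the type I interferon receptor, to which TYK2 and JAK1 bind, were higher in the same treated WT cells as Tyk2. Ifnar2 was also called in S5 cells (1.06 ± 0.24, adjusted p = 0.0424). Between KO and WT cells 2 of the 37 probe sets were higher and 20 lower in KO. The median was -0.50, beside 0.01 over all probe sets tested (17.8% called higher and 13.6% lower). The lower ones included Il13ra1 (-2.96 ± 0.12, adjusted p = 3.86e-06) and Osmr (-0.94 ± 0.06, adjusted p = 2.02e-05). Between S5 and WT cells 1 was higher and 20 lower in S5, with a median of -0.33. Over all probe sets that median was -0.02 (21.6% called higher and 17.3% lower). Osmr was lower there too (-0.91 ± 0.06, adjusted p = 1.47e-05), as was Il13ra1 on another probe set (-2.99 ± 0.15, adjusted p = 5.26e-06). The macrophage marker difference stands beside both comparisons with WT cells, and its part was not tested.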

How the data were processed

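Total RNA of the 12 MEF samples was labelled with biotin per the labels' protocols and read on Affymetrix arrays. The deposited log2 expression values come from the authors, and GCOS and RMA are named per the submitters' processing notes, without versions or settings. The log2 scale was read from the value range of 0.9893 to 15.95 and is not stated in words. Probe sets were named through the platform annotation. The tests covered 34945 probe sets with exactly 1 gene, without 64 controls, 932 listed with more than 1 gene and 9160 with no gene.

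A limma 3.58.1 model (R 4.3.3) of the 6 group means was fitted to all 12 arrays (6 residual and 1.13 prior degrees of freedom). P-values are two-sided and adjusted by the Benjamini-Hochberg method, with a threshold of 0.05. The 9 comparisons were treated against untreated cells of a genotype, the contrasts of those responses, and the genotypes themselves. The test was checked on simulated data with independent normal errors, where changes were added to the treated WT arrays alone. Genotype differences and errors shared between probe sets of an array were not simulated. A mean below 4 was taken as the low mode, where differences are compressed. Errors after ± are SEs of the model except where SD is written.

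Every member probe set is accounted for. Up to 4 genes of each further list, those with the smallest adjusted p, could be named. The members, lists and low bound were chosen with earlier results of these data known. Alternatives were a filter on low values, other priors, array weights, normalization and centring, the groups compared alone, a gene-level unit, a replicate block, each treatment alone and leaving out each array. RefSeq tables of assembly GRCm38.p6 gave promoters.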

Additional observations from a re-analysis of the deposited data

Results flagged for a closer look

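The growth hormone response of Sh2b3 (probe set 1433455_at) differed between S5 and WT cells in the test of the difference itself, by -0.81 on the log2 scale (limma, adjusted p = 0.0281). Treated minus untreated was -0.11 in S5 cells, where the arrays overlapped, and 0.70 in WT cells, where both treated arrays lay above both untreated ones. With the replicate block the adjusted p was 0.0566, and over all alternatives it ranged between 0.0187 and 0.797, the highest with the mean of both Sh2b3 probe sets, of which 1 is in the low mode.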

How the results depend on the processing

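Of the 37 member results past the threshold, 8 stayed past it under every alternative run: Ghr 1451501_a_at, Jak1 1433803_at and 1433805_at and Ptpn1 1417068_a_at for KO minus WT, Sh2b3 and Ptpn1 1417068_a_at for S5 minus KO, and Ghr 1451501_a_at and Sh2b3 for S5 minus WT. The other 29 lost the call under at least 1. Over 66 member results, 1279 of 1468 values kept their direction and side of the threshold.

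The number of member probe sets called with growth hormone in WT, KO and S5 cells (5, 1 and 3) was 0, 0 and 1 when only the groups compared were fitted, which leaves fewer arrays for the variance, and the 1 for the S5 minus WT response became 0. The KO count of 1 was 0 with a trended prior, a trended and robust prior, array weights or the replicate block, and the S5 minus WT response count was 0 with the replicate block. The replicate block moved no other count by more than 1.5 times. With treated arrays only, S5 minus KO called 5 (against 9), and with untreated arrays only, S5 minus WT called 2 (against 8). With the mean of the probe sets of a gene, 3 genes (against 5) were called with the hormone in WT cells, 1 (against 2) in S5 cells, 0 (against 1) for the S5 minus WT response and 4 (against 7) for S5 minus WT. Leaving out each array gave 2 to 5 in WT, 0 to 1 in KO and 1 to 3 in S5 cells for the hormone, 0 to 1, 0 to 1 and 0 to 2 for the response differences WT minus KO, S5 minus KO and S5 minus WT, and 7 to 10, 7 to 11 and 6 to 9 for KO minus WT, S5 minus KO and S5 minus WT. Where an array was left out, the lone array of its group was assumed to vary like the other groups.

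Among results called on at least 1 side, the direction turned for Sh2b3, KO minus WT, at 0.004 on untreated arrays (adjusted p = 0.998), and for Jak2 1421066_at, which, as the mean over its probe sets, was -0.27 for S5 minus KO and -0.23 for S5 minus WT. Some differences called on neither side also changed sign, such as Ghr 1451871_a_at for S5 minus KO (-0.34, and 0.12 on treated arrays). Apart from low-mode compression and the arrays named, the causes were not tested. Deviations of same-numbered arrays correlated at -0.38 to 0.19 over 15 pairs of groups, with 1 pair above 0.1. These values show no pairing by replicate number common to all groups. A pairing under other numbers was not tested.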
